A study of Homo sapiens with 4 samples.

Results

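Cytosolic chaperones are the proteins that help other proteins to fold in the cytosol. The 41 genes described are HSP70 proteins with their cofactors, HSP90 proteins with their cochaperones, DNAJ proteins, subunits of the folding chamber TRiC, subunits of prefoldin, the small heat shock protein HSPB1 and the transcription factor HSF1, chosen by name. They were measured in RCM-1, a human cell line from a well-differentiated rectal adenocarcinoma whose cultures form domes, blister-like areas of polarised cells over trapped fluid. Nearly confluent cells were given 1 mM methylthioacetic acid (MTA), either for 6 h, for 12 h or for 18 h. They were then kept in vehicle medium (0.1% acetonitrile) until 24 h after the addition, so these cultures had 18, 12 and 6 h without MTA. The 0 h culture is labelled as the control, and its labels give the same protocol, with vehicle medium and a harvest by 24 h. Each duration had 1 oligonucleotide array, so there is no replicate, no test was possible and no p-value is given. Every ratio shares the 0 h array. In bulk RNA, a smaller amount of a transcript per cell and fewer cells that make it cannot be told apart.

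Of the 41 genes, 35 had a probe set annotated to that gene alone, and in all 35 the brightest one was bright enough to be kept, with a mean signal of at least 34 over the 4 arrays. These 35 stand beside the 10505 genes of the array with a kept probe set of their own. HSPA1A, HSPA1B, HSPA8, TCP1 and PFDN6 were covered by probe sets whose annotation names several genes, and their values are given apart and enter no count. AHSA1 had no probe set listed. Epithelial markers were bright on the 4 arrays, with signals of 2040 or more for EPCAM, KRT8, KRT18, KRT19, KRT20, CDH1 and VIL1, and 54.9 to 70.3 for CDX2. Of the stromal and immune markers VIM, COL1A2, COL3A1, PTPRC and CD3E stayed at or below 31.1, while PECAM1 ran from 28.6 to 53.0.

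Chaperones pass an unfolded protein along a chain. HSP70 binds short greasy stretches of a chain, DNAJ proteins bring it the client and start its ATP cycle, and exchange factors such as HSPH1 and the BAG proteins reset it. HSP90 takes over nearly folded clients such as kinases and steroid receptors, with cochaperones that load, hold or release them. TRiC, a ring of CCT subunits, encloses actin and tubulin, which prefoldin hands to it. When proteins misfold, HSF1 binds heat shock elements, alternating GAA and TTC units, and raises transcription of the inducible chaperone genes. Many cancers carry high levels of these proteins.

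The promoters of 6 genes are shown because they span what was found: a stress-inducible HSP70 gene, its constitutive relative, the HSP90 gene with the smallest difference, the gene with the most matches to inverted pairs, the small heat shock protein that was higher, and the gene with the lowest ratio. Each sequence runs from 250 bases before the RefSeq transcription start to the base before it (build GRCh38.p14), 5′ to 3′ on the strand of the gene, and capitals mark each inverted pair of units, GAANNTTC or TTCNNGAA, both of which read the same on either strand.
HSPA1A, chr6:31815293-31815542 (plus strand): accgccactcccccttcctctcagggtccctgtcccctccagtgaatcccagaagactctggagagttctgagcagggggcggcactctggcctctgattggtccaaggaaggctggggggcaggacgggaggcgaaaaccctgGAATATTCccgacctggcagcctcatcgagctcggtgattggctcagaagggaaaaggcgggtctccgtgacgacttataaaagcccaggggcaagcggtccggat
HSPA8, chr11:123062137-123062386 (minus strand): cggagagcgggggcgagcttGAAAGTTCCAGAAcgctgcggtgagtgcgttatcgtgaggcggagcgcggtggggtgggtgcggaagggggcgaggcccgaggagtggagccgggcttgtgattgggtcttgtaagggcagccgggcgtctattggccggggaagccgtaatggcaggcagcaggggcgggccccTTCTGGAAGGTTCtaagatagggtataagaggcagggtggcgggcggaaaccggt
HSP90AA1, chr14:102087045-102087294 (minus strand): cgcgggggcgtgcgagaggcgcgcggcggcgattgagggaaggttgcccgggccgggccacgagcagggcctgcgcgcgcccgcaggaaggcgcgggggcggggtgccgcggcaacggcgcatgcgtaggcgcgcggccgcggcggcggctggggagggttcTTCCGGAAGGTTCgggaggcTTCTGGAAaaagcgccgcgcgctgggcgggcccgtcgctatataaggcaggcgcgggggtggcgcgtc
CHORDC1, chr11:90223050-90223299 (minus strand): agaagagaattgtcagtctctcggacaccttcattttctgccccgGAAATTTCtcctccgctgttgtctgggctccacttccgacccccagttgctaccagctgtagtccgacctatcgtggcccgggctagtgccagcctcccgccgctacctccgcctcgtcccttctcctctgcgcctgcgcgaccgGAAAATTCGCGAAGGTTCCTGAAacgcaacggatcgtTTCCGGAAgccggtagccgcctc
HSPB1, chr7:76302423-76302672 (plus strand): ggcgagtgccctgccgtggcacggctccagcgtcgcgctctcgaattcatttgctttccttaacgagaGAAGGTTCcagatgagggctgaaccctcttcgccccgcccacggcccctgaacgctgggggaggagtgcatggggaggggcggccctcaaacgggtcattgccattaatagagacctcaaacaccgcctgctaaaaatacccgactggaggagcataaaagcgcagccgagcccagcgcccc
BAG2, chr6:57172076-57172325 (plus strand): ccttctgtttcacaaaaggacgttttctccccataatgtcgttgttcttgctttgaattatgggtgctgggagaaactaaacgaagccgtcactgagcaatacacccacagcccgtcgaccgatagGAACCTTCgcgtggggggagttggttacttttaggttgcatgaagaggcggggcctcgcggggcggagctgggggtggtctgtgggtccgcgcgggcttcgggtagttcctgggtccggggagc

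An inverted pair stood in 11.6% of all 35116 promoter windows of this length and in 14.0% of the genes that have one. Of the 41 chaperone genes 35 had a window, and 15 of these held a pair. Overlapping pairs that make 3 alternating units stood in 0.441% of windows, 0.557% of genes and 5 of the 35 chaperone genes, which were HSPA8, HSP90AA1, HSP90AB1, CHORDC1 and DNAJB6. CHORDC1 held 6 pairs, and HSPA8 and HSP90AB1 held 4 each. HSPH1, BAG3 and STIP1, which are among the genes listed as heat-inducible, held no pair in these windows. A match of letters is a description and no evidence of binding, and its absence says only that these letters are not in this window.

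At 18 h of MTA the chaperone genes had lower signals than at 0 h nearly throughout. Their median log2 ratio was −0.85, against −0.47 for all genes, and 33 of 35 had a ratio below 0, as did 78.3% of all genes. Of the 35, 12 were below −1, a 2-fold lower signal, where 15.8% of all genes were. None was above 1, where 3.15% of all genes were. The ratios ran from −1.86 for BAG2 to 0.26 for HSPB1. Relative to the median of all genes, 30 of the 35 were lower by their brightest probe set, and the other 5 were ST13, HSP90AA1, DNAJC7, DNAJB4 and HSPB1.

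The difference from all genes was small on the 6 h array. There the median of the chaperone genes was 0.05, against 0.11 for all genes. Within 0.25 of 0 were 24 of 35, a count not taken for all genes. Below the median of all genes were 24 of 35, among them all 7 TRiC subunits and 6 of the 7 genes of HSP70 proteins and their cofactors. None of the 35 was below −1 (0.476% of all genes) and none above 1 (4.68% of all genes). At 12 h their median was −0.59, against −0.28 for all genes. There 5 of 35 were below −1 (6.29% of all genes) and none was above 1 (3.28% of all genes). As deposited, all but HSPB1, 34 of 35, were lower on the 12 h array than on the 6 h array. On the 18 h array 33 of 35 were lower than on the 12 h array, the others being CHORDC1 and PFDN4. The shares of all genes that did so were not counted, and the median of all genes was also lower on each later array. Under the deposited scaling the median step was −0.53 from 6 to 12 h and −0.30 from 12 to 18 h, beside −0.39 and −0.20 for all genes. The sizes of these steps, and whether the signals were lower at 18 h than at 12 h, depended on the scaling of the arrays, as given below. Time under MTA and time since its removal run against each other in this design and cannot be told apart.

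**Figure D1:**
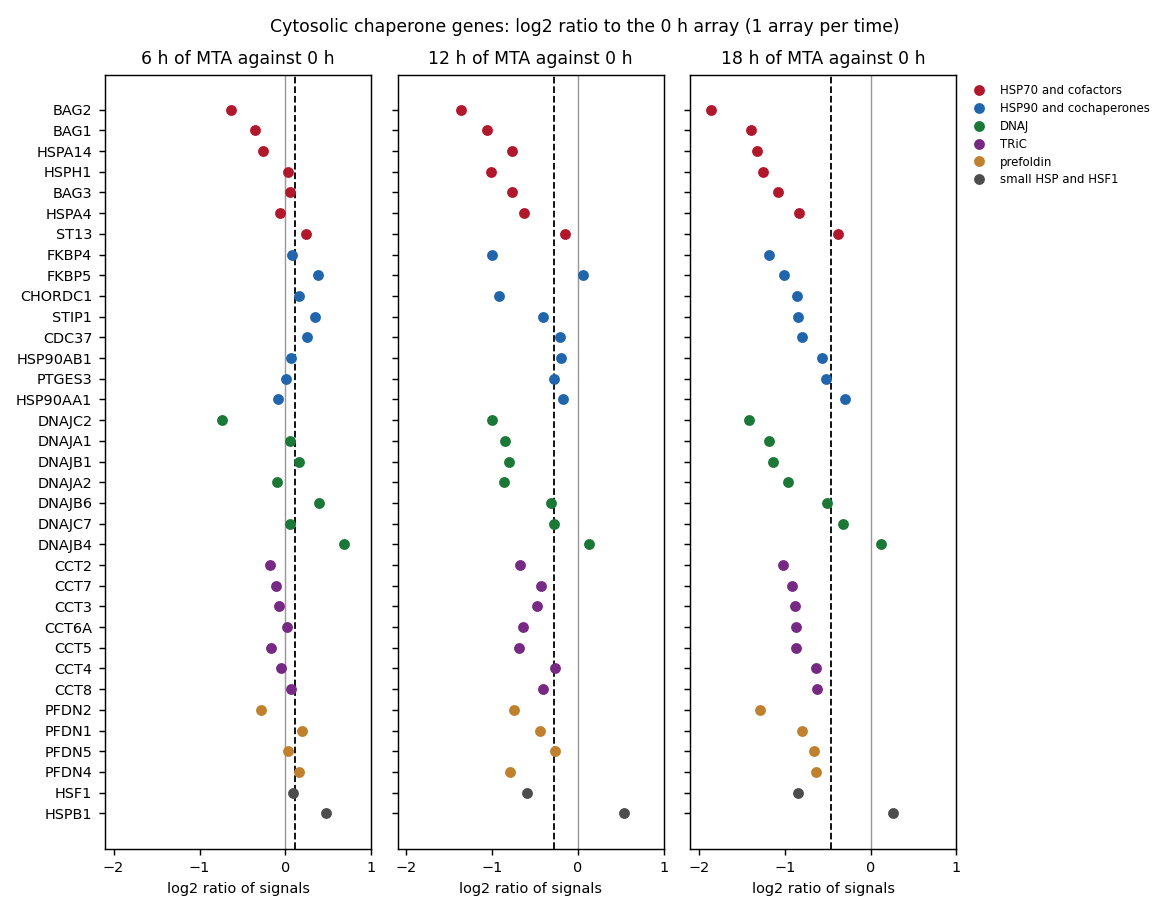
Log2 ratio of the signal at 6, 12 and 18 h of MTA to that at 0 h for the 35 chaperone genes, coloured by family, with 1 array per time. The dashed line is the median of all genes (0.11, −0.28 and −0.47) and the grey line is 0. The points lie about the dashed line at 6 h and mostly left of it at 18 h, where BAG2 is lowest at −1.86 and HSPB1 highest at 0.26.

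The HSP70 family, here HSP70 proteins together with their cofactors, had the lowest median of the families at 18 h. It was −1.26 over 7 genes, with 5 of them below −1 (15.8% of all genes). The 7 include the cofactors BAG1, BAG2, BAG3 and ST13. They leave out HSPA1A, HSPA1B and HSPA8, which could not be read alone. BAG2, which keeps the ubiquitin ligase CHIP from marking HSP70 clients, had signals of 908.5, 584.4, 353.7 and 251.1 at 0, 6, 12 and 18 h. It was lower with each longer treatment, with log2 ratios of −0.64, −1.36 and −1.86. BAG1, which opens the nucleotide pocket of HSP70, had 894.0, 699.2, 429.0 and 339.9. Its log2 ratios were −0.35, −1.06 and −1.39. At 6 h 6 of the 7 genes of this family were below the median of all genes, with BAG2 and BAG1 the farthest below it. HSPA14, an HSP70 protein of the ribosome-associated complex, had 1082, 903.5, 634.9 and 431.2, with ratios of −0.26, −0.77 and −1.33.

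HSPH1, the large heat-inducible exchange factor also called HSP105, was near its 0 h signal on the 6 h array and lower on the 12 and 18 h arrays. Its signals were 4838 and 4951 at 0 and 6 h, and 2401 and 2025 at 12 and 18 h. The log2 ratios were 0.03, −1.01 and −1.26. BAG3, which steers HSP70 clients to autophagy, showed the same order of arrays, with 2125, 2201, 1243 and 1008 and a ratio of −1.08 at 18 h. HSPA4, an exchange factor related to HSPH1, had 1448, 1388, 934.1 and 809.7, which gave −0.84 at 18 h. ST13, which links HSP70 to HSP90, stood apart from these on its brightest probe set, with 3120, 3674, 2812 and 2406 and a ratio of −0.37. Its dimmer probe sets had −0.49 and −0.77 at 18 h, below the median of all genes, so its place apart rests on the brightest one.

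The inducible pair HSPA1A and HSPA1B is read by shared probe sets, since their coding sequences are nearly identical. The brightest, annotated to both, had signals of 4479, 4564, 1862 and 1818, that is, log2 ratios of 0.03, −1.27 and −1.30. A dimmer one, annotated also to HSPA1L, had 1671, 1686, 551.8 and 472.4, with −1.82 at 18 h. On both, the 0 and 6 h arrays were alike and the 12 and 18 h arrays were more than 2-fold lower. The constitutive HSPA8 shares its probe sets in the annotation with SNORD14C and SNORD14D, small nucleolar RNAs. Its brightest had 12845, 12760, 8191 and 7721. Its 4 kept probe sets ran from −0.91 to −0.55 at 18 h, all above both values of the inducible pair.

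By the brightest probe set of each, HSP90AA1 differed least from 0 h among HSP90 and its cochaperones, followed by PTGES3 and HSP90AB1. HSP90AA1, the inducible form, had 15861, 14949, 14037 and 12853, and HSP90AB1, the constitutive form, 5316, 5578, 4619 and 3592. Their log2 ratios at 18 h were −0.30 and −0.57. Dimmer probe sets of HSP90AB1 had −0.81 and −0.62, and those of HSP90AA1 ran from −0.45 to −0.27. The signals of HSP90AA1 are near the top of the array, where the highest signal of any probe set was 20594, and whether its ratio is compressed there was not tested. PTGES3, the p23 protein that holds HSP90 in its closed state, had 10596, 10641, 8708 and 7376, with a ratio of −0.52.

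The other 5 cochaperones had lower ratios by their brightest probe sets, from −1.18 to −0.80. FKBP4, a peptidyl-prolyl isomerase of steroid receptor complexes, had 436.5, 458.9, 217.9 and 192.7, with a log2 ratio of 0.07 at 6 h, just past the 2-fold mark at 12 h and −1.18 at 18 h. FKBP5, its counterpart that steroid hormones induce, took another course. Its signals were 739.8, 960.9 and 768.8 at 0, 6 and 12 h and 368.1 at 18 h. Its ratio was 0.06 at 12 h and −1.01 at 18 h, and the step of −1.06 between these arrays was the largest of the 35 genes. A dimmer probe set of FKBP5 had a step of −0.49 and a ratio of −0.45 at 18 h, and the mean of both gave −0.73, so its place below −1 rests on the brighter one. CHORDC1, a heat-inducible partner of HSP90, had 1651, 1850, 873.5 and 913.0, so its ratio was −0.92 at 12 h and −0.85 at 18 h. STIP1, which hands clients from HSP70 to HSP90, had −0.84 at 18 h, and CDC37, which brings kinases to HSP90, had −0.80.

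DNAJ genes spread widely, from −1.42 to 0.13 at 18 h, with a median of −0.96 over 7 genes. DNAJC2, of the ribosome-associated complex like HSPA14, had 1431, 859.4, 714.4 and 536.0. It had the lowest ratio of the 35 genes at 6 h, −0.74, and −1.42 at 18 h. DNAJA1 and DNAJB1, the main partners of cytosolic HSP70, were alike. DNAJA1 had 3830, 3992, 2117 and 1686, with −1.18 at 18 h. DNAJB1 had 1408, 1567, 804.6 and 641.9, with −1.13 at 18 h. DNAJA2, related to DNAJA1, had −0.96, and DNAJB6, which holds back aggregation of polyglutamine proteins, had −0.51. DNAJC7, which binds both HSP70 and HSP90, had −0.32. DNAJB4 was the exception, with 167.7, 269.5, 184.0 and 182.9, a ratio of 0.68 at 6 h and 0.13 at 18 h.

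**Figure D2:**
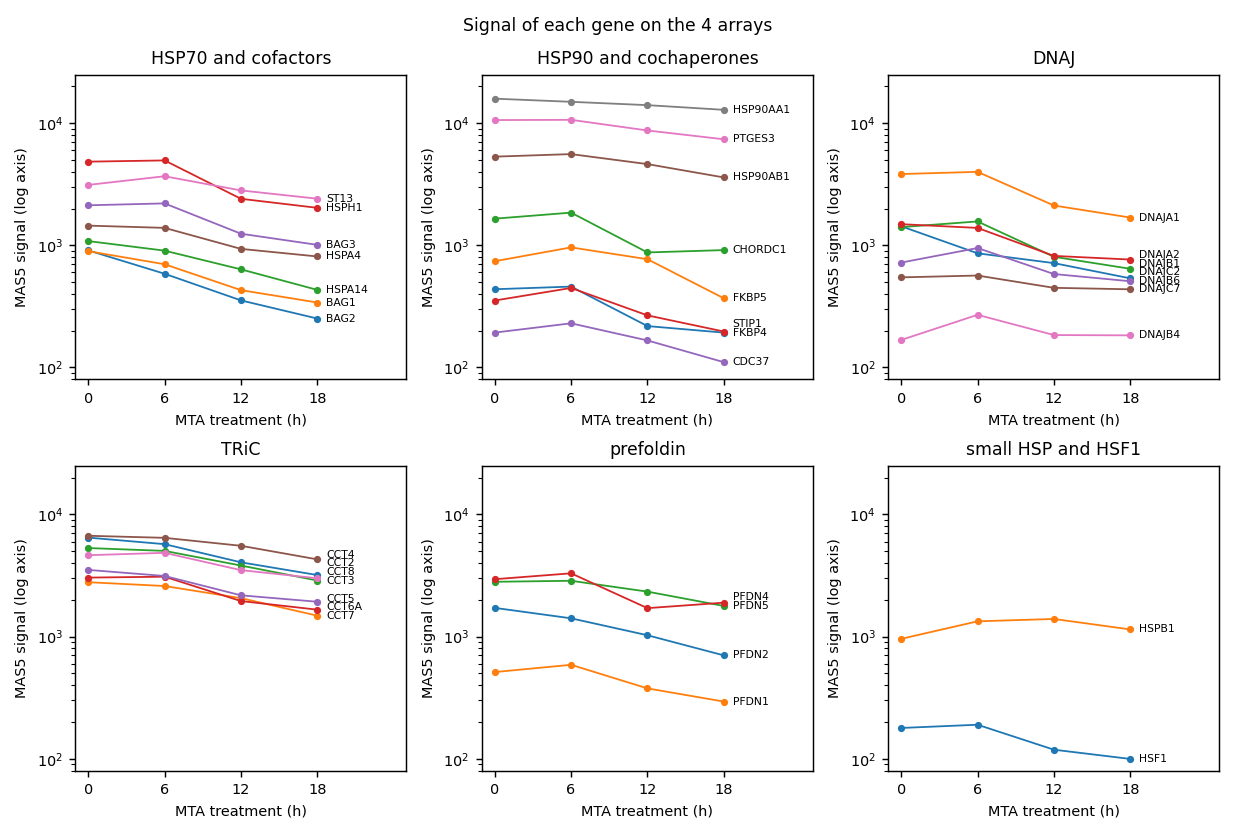
MAS5 signal (log axis) of the 35 chaperone genes against hours of MTA treatment, 1 panel a family and 1 point an array. Most lines are level from 0 to 6 h and lower at 12 and 18 h. BAG1, BAG2 and DNAJC2 are lower at 6, 12 and 18 h, and HSPB1 is above its 0 h signal on every MTA array.

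By the brightest probe set of each, TRiC subunits had closely similar ratios, with a median of −0.87 at 18 h. The 7 measured ones ran from −0.18 to 0.06 at 6 h, from −0.69 to −0.27 at 12 h and from −1.02 to −0.63 at 18 h, where all 7 were below the median of all genes. CCT2 was lowest, with 6461, 5710, 4054 and 3189. CCT7 had 2788, 2593, 2064 and 1482, which gave −0.91, and CCT3 had −0.88. CCT6A and CCT5 both had −0.87. CCT4 and CCT8 were highest at −0.64 and −0.63, CCT4 with 6688, 6434, 5537 and 4287. Dimmer probe sets at 18 h spread more widely. They had −1.31 for CCT2 and −1.17 for CCT6A, and −0.22 for CCT5 and −0.16 for CCT4, above the median of all genes. The remaining subunit, TCP1, is annotated together with the small nucleolar RNA SNORA29. Its 3 kept probe sets had −0.84, −0.85 and −0.88 at 18 h, inside the range of the others.

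Prefoldin subunits had a median of −0.73 over 4 genes at 18 h. PFDN2 had 1718, 1411, 1025 and 701.4, with a ratio of −1.29, and PFDN1 had 512.0, 587.3, 376.5 and 293.6, with −0.80. PFDN5 had −0.66. PFDN4 had 2949, 3295, 1709 and 1895, so that its 18 h signal was above its 12 h signal and the ratio was −0.64. PFDN6 is annotated together with the microRNA gene MIR6834, and its 4 kept probe sets had −0.71, −0.84, −0.90 and, on the dimmest, 0.33.

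HSPB1 and HSF1 differed in direction. HSPB1, a small heat shock protein that binds unfolding clients and is abundant in epithelia, had 958.0, 1333, 1394 and 1144, with log2 ratios of 0.48, 0.54 and 0.26. It was above its 0 h signal on all 3 MTA arrays, with its largest ratio at 12 h, where 32 of the 35 genes were below 0 (71.6% of all genes). HSF1, the regulator itself, had 178.5, 189.7, 118.5 and 99.6, with −0.84 at 18 h. This is a transcript signal, and HSF1 acts through its protein's state, which was not measured.

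Of 13 genes listed as heat-inducible, 10 could be read alone. The medians of these 10 were 0.11, −0.79 and −0.97 on the 6, 12 and 18 h arrays. At 18 h 5 of them were below −1 (15.8% of all genes), HSPH1, DNAJA1, FKBP4, DNAJB1 and BAG3. None was above 1 (3.15% of all genes). DNAJB4 and HSPB1, at 0.13 and 0.26, were the only ones above 0. The 4 single-gene members with 3 alternating units in the promoter, CHORDC1, HSP90AB1, DNAJB6 and HSP90AA1, had −0.85, −0.57, −0.51 and −0.30, a median of −0.54. The 6 with a pair but without such overlap had a median of −1.08 and ran from −1.86 for BAG2 to 0.26 for HSPB1. The 19 whose windows held no pair had a median of −0.84 and ran from −1.42 for DNAJC2 to −0.32 for DNAJC7, with HSPH1, BAG3 and STIP1 at −1.26, −1.08 and −0.84. The 3 ranges overlapped. HSPA14, PFDN2, FKBP4, CCT6A, HSF1 and ST13 were read alone but had no promoter window, so they are in none of these groups. Their ratios ran from −1.33 for HSPA14 to −0.37 for ST13. Which promoter a transcript used was not measured.

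The ratios can be set against a second reading of the same RNA, since 21 of the 35 genes had 2 or more kept probe sets. In 20 of the 21 all kept probe sets had the same sign at 18 h, and in 19 all were below 0. The matching shares of all genes were not counted, and by the brightest probe set 78.3% of all genes were below 0 at 18 h. DNAJC7 was the exception, with −0.32 and, on a dimmer probe set, 0.29. Between the 2 brightest probe sets the ratio at 18 h differed by a median of 0.25 in these 21 genes, and by 0.25 over 4676 genes of the array, where the SD of the difference was 0.48. The largest such difference among the chaperone genes was 0.64, in CCT5. This spread covers neither cultures nor arrays. The brightest probe set had the lowest value of its gene in 10 of the 21 genes, the highest in 9 and one between in 2. Dimmer probe sets were nearer to 0 for FKBP5, with −0.45 in place of −1.01, for CCT5, with −0.22 in place of −0.87, for CCT4, with −0.16 in place of −0.64, and for BAG1, which reached up to −0.83. They were farther from 0 for HSPA4, whose 4 values reached down to −1.65, and the 3 values of HSPA14 ran from −1.92 to −1.28. With the mean over the kept probe sets 13 of the 35 genes were below −1 at 18 h, as were 15% of all genes.

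**Figure D3:**
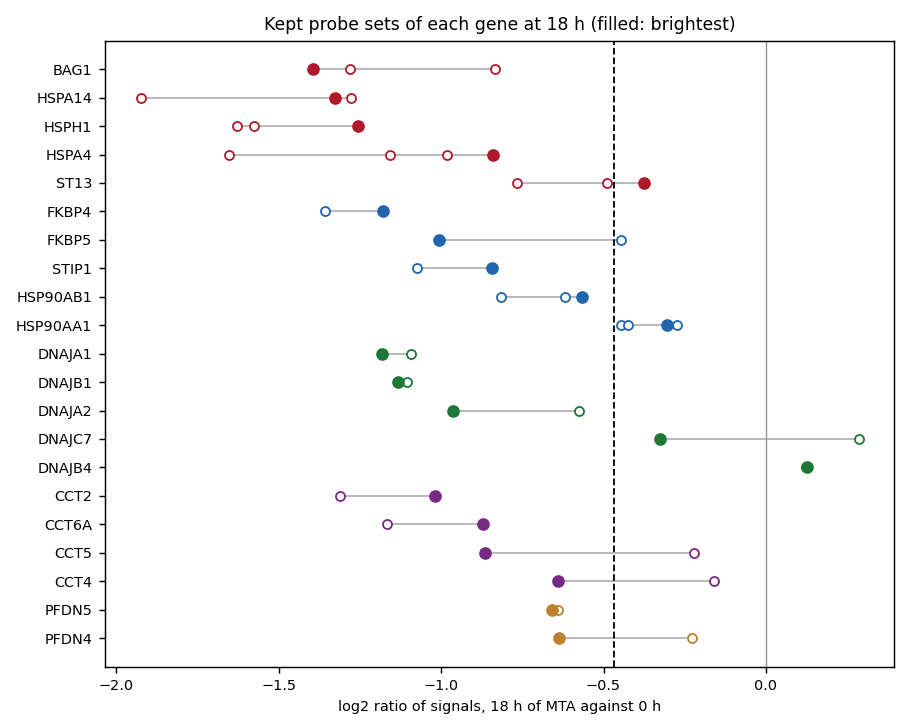
Log2 ratio at 18 h of MTA against 0 h for each kept probe set of the 21 chaperone genes with 2 or more, filled for the brightest and open for the others, with the same colours for families. The grey line is 0 and the dashed line the median of all genes, −0.47. Only DNAJC7 has points on both sides of 0, at −0.32 and 0.29, and the points of HSP90AA1 lie between −0.45 and −0.27.

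Chaperone genes also had lower medians than all genes within each of 3 ranges of mean signal, which were set after the values had been examined. Among genes with a mean signal from 1000 to 3000, the 14 chaperone genes had a median of −0.87 at 18 h, and all 1194 genes of that range −0.61. Below 1000 the medians were −0.84 for 13 chaperone genes and −0.44 for 8860 genes. From 3000 up they were −0.63 for 8 and −0.46 for 451.

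Other cytosolic chaperone genes, from a list of 47 of which 38 were measured, had a median of −0.67, with 9 below −1 and 1 above 1. At 18 h 15.8% of all genes were below −1 and 3.15% above 1, which also stands beside the mitochondrial and ER counts. TTC4, an HSP90 cochaperone, had −1.46, URI1, of the prefoldin-like complex, −1.40, and NUDC −1.39. UNC45A, a chaperone of myosin, at −0.70, and TBCA, a tubulin folding cofactor, at −0.65, lay nearest the median. HSPA2, an HSP70 gene best known from the testis, had 1.37, but from a dim signal of 16.6 at 0 h. Mitochondrial chaperones had a median of −0.82 over 12 genes with 3 below −1, GRPEL1, the nucleotide exchange factor of the mitochondrial HSP70, at −1.60, its J protein DNAJA3 at −1.54 and HSPE1, the lid of the mitochondrial folding chamber, at −1.06. TRAP1, the mitochondrial HSP90, at −0.86, and the protease LONP1, at −0.79, lay nearest the median. ER chaperones had a median of −0.54 over 16 genes. The 3 below −1 were SDF2L1 and CRELD2 at −1.20 and DNAJB11 at −1.03, a share of 18.8%, close to that of all genes. SIL1 and PDIA3, at −0.58 and −0.50, lay nearest the median. HSPA5, named outside the rule as the HSP70 of the ER, had −0.30. At 18 h the cytosolic families thus lay from −0.79 for HSP70 to −0.26 for prefoldin relative to all genes, the mitochondrial list at −0.36 and the ER list at −0.07. No test of these differences was possible with 1 array per time.

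The clients of TRiC spread more widely than its subunits. Of 12 measured actins and tubulins none was below −1 at 18 h, where 15.8% of all genes were. Their median was −0.34, with TUBA1C at −0.35 and TUBB4B at −0.32 nearest to it. TUBA4A and TUBG1, at −0.96 and −0.78, lay within the range of the TRiC subunits, 6 lay above it and below 0, from −0.55 for ACTB to −0.28 for TUBA1B, and 4 lay above 0. TUBA1A was higher on every MTA array, with log2 ratios of 2.20, 2.18 and 1.80 and signals of 134.5 at 0 h and 466.8 at 18 h. TUBA4A, TUBG1, ACTB, TUBA1B, TUBB2A, TUBB2B and TUBB6 are named outside the rule, for their values. The last 3 had 1.65, 1.20 and 1.13 at 6 h and 0.44, 0.70 and 0.76 at 18 h. Tubulin genes are similar in sequence, so their probe sets can take up each other's transcripts.

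**Figure D4:**
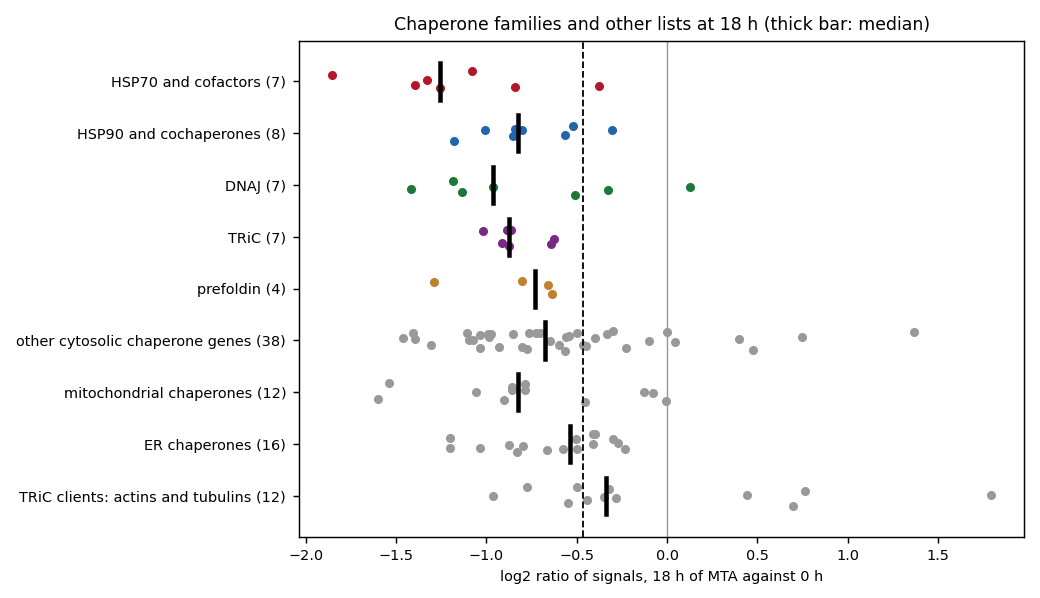
Log2 ratio at 18 h of MTA against 0 h for the genes of each chaperone family and of 4 other lists (grey), with the number of measured genes in brackets, thick bars for the medians and the dashed line for all genes, −0.47. The vertical place of a point within a list has no meaning. The medians of the 5 families lie left of the dashed line, from −1.26 for HSP70 to −0.73 for prefoldin, the ER list lies near it at −0.54, and the actins and tubulins right of it at −0.34.

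How far the signals lay below those at 0 h depended on the scaling of the arrays. The poly-A controls, which go into the RNA ahead of labelling, averaged −0.25 on the log2 scale at 18 h, and the hybridization controls, which go in later, −0.05. At 12 h they averaged 0.03 and −0.27, beside a median of −0.28 for all genes. With the ratios centred on their median 1 of the 35 genes, BAG2, was below −1 at 18 h, where 3.74% of all genes were, and with quantile normalization again only BAG2 was, where 3.83% of all genes were. Relative to the poly-A controls 6 were (7.47% of all genes), and relative to the hybridization controls 10 (13.8% of all genes). The median of each of the 5 families stayed below 0 at 18 h under the deposited scaling and the 4 others tried, from −1.26 to −0.66 for HSP70 and from −0.73 to −0.15 for prefoldin. The sign at 18 h was the same under all 5 scalings for 31 of the 35 genes, and HSP90AA1, DNAJB6, DNAJC7 and ST13 turned. The share of all genes that kept their sign was not counted. At 6 h the medians of HSP90, DNAJ and prefoldin changed sign between scalings, and at 12 h that of HSP90 did. Relative to the poly-A controls the median of the 35 genes was −0.15, −0.62 and −0.60 at 6, 12 and 18 h, so it was no lower at 18 h than at 12 h. Relative to the hybridization controls it was 0.03, −0.32 and −0.80, with the larger step after 12 h.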

How the data were processed

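RNA of 4 RCM-1 cultures, 1 per duration of MTA treatment, was measured on Affymetrix U133 Plus 2.0 arrays after biotin labelling, and the array work was done by the manufacturer. The values deposited by the authors are linear signal intensities computed with MAS5 in Affymetrix Expression Console, 1 per probe set and array (version and scaling target not given in the sources used here). The median signal was 16.7, 20.8, 16.6 and 16.4 at 0, 6, 12 and 18 h. Precision is limited by having 1 array per time.

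Control probe sets (62) were left out, and as many of the others were kept as the study counts as detected, by mean log2 signal. Log2 ratios to 0 h used the deposited scaling and no pseudocount. Probe sets were named through GEO's platform annotation, with symbols updated by RefSeq (GRCh38.p14). Of 54613 probe sets, 41091 had 1 symbol, 1801 several and 11721 none. A gene was its kept probe set of 1 symbol with the highest mean signal, and was counted beyond a log2 ratio of 1. Every member is named. Of other lists, up to 4 genes beyond 1 at 18 h, by size, and the one nearest the median (both where tied) are named, with exceptions stated. The members and lists were chosen with earlier results of these data known. Alternatives were 4 scalings, a pseudocount of 2.90, no filter or the 10000 brightest probe sets, a threshold of 1.5, and 3 other ways to represent a gene. Promoter sequences came from RefSeq. The calculation was tested on simulated data. Python 3.11.15, NumPy 2.4.6 and pandas 2.3.3 were used.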

Additional observations from a re-analysis of the deposited data

How the results depend on the processing

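With 1 array per time nothing could be left out. Of 176 recomputed values that answer a comparison, 157 stayed within the tolerance and 19 did not. The tolerance was 1.5 times for a count, and for a log2 value 0.246, the median difference between probe sets of a gene. No log2 value among them was beyond 1 as deposited, so a change of sign of a called value could not occur. The 6 h median, 0.05 as deposited, was −0.07 after centring on the median and −0.15 relative to the poly-A controls. Among the 157, 24 are distances from the median of all genes that a constant per array cannot move. Others of the 157 could not move either. The counts below −1 at 6 h and above 1 at 6, 12 and 18 h were 0 as deposited, and a higher threshold cannot raise a count of 0. They were 0 under every alternative. Dropping the filter left each chaperone gene its probe set, so the counts and medians of these genes could not change there. Scaling moved most. At 18 h the count below −1, 12 as deposited, was 1 after centring on the median, 1 after quantile normalization and 6 relative to the poly-A controls, and the median of −0.85 became −0.41, −0.32 and −0.60. At 12 h the count of 5 became 1 after centring, 1 after quantile normalization and 1 relative to the hybridization controls (2.24%, 2.16% and 2.37% of all genes), with medians of −0.31, −0.25 and −0.32 in place of −0.59. At 12 h it was 3 with the pseudocount (5.88% of all genes) and 3 without probe sets of shared sequence, _s_at and _x_at (6.77%). Without those probe sets 21 genes were left, and the shift from all genes at 18 h was −0.087 for HSP90 (4 genes), −0.19 for DNAJ (4) and −0.59 for prefoldin (2), in place of −0.36, −0.49 and −0.26. At a threshold of 1.5, 0 genes were lower at 12 h (0.942% of all genes) and 1 at 18 h (3.19%). The distance of the chaperone median from that of all genes at 18 h, −0.39, ran from −0.53 with no filter to −0.31 with the 10000 brightest probe sets over the 7 alternatives that could move it.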
